A study of Mus musculus with 10 samples.

Results

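*Dapl1*, *Rprml* and *Cib3* were among the genes with the largest falls in the islets of mice that lack FIT2 in β cells, and they are described here in the islets of each mouse. They were picked from the 47340 genes of the deposited table because their level was far lower in the KO than in the FL mice with no overlap between the groups. By the difference in log2(FPKM + 1) they held places 3 to 5 among such falls. Their FL and KO values therefore serve as a description, and no test of that difference is given. The 3 genes are among the 13065 genes that had a mean of at least 1 FPKM in either group, the unit of the table, which scales the reads of a gene by its exon length and by the depth of the library.

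RNASeq was performed on pancreatic islets of 5 floxed control (FL) and 5 β cell-specific FIT2 knockout (KO) mice, with 1 library of polyadenylated RNA per mouse. All were males of 12 wk on a chow diet. FIT2, encoded by *Fitm2*, is a protein of the endoplasmic reticulum that is needed for lipid droplets to form. FL mice carried *Fitm2* with flanking loxP sites on both alleles, although the genotype label of these samples reads wild type. KO mice were littermates with the same floxed alleles and in addition Cre recombinase under the rat insulin promoter, so that deletion was limited to cells in which this promoter is active. Islets with Cre and an intact *Fitm2* were not among the libraries, and Cre and the loss of FIT2 cannot be told apart. Isolated islets of both groups were left overnight in CMRL medium before RNA was extracted.

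DAPL1, death-associated protein-like 1, belongs with DAP to a small family of short proteins. DAP is a substrate of the kinase mTOR and a negative regulator of autophagy, and both proteins are found in the exit tunnel of dormant ribosomes in eggs. RPRML, Reprimo-like, is encoded by a gene without introns, and its relative Reprimo is induced by p53 and takes part in arrest of the cell cycle before mitosis. CIB3 belongs to the calcium and integrin binding proteins, which hold calcium in EF-hand motifs. CIB2 and CIB3 are known as partners of the TMC channels that turn sound and movement into current in hair cells of the inner ear.

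The 3 genes lie on different chromosomes and have short transcripts. Positions follow the GENCODE M21 annotation of the GRCm38 build. *Dapl1* (ENSMUSG00000026989.5) lies at chr2:59484653-59505020 on the plus strand, and its coding transcript of 573 nt has 4 exons. *Rprml* (ENSMUSG00000046215.3) lies at chr11:103649570-103650579 on the plus strand, with a single exon of 1010 nt. *Cib3* (ENSMUSG00000074240.3) lies at chr8:72204335-72212837 on the minus strand. Its coding transcript of 585 nt has 5 exons, and a transcript of 2014 nt with a retained intron is annotated as well. The deposited identifier of *Cib3* is an earlier version than that of the annotation, so its exons in the authors' count may differ. Total exon length, with all transcripts merged, was 679 nt for *Dapl1*, 1010 nt for *Rprml* and 2014 nt for *Cib3*, against a median of 4290 nt over the 13024 tested genes with an annotated length. No other annotated gene overlapped any of the 3.

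The sequence before an annotated start of each gene is shown as a description. That the 3 genes were lower together follows from their choice. The windows hold the 250 bases before the start that the RefSeq promoter table uses, read on the strand of the gene from the GRCm38.p6 build. For *Dapl1* and *Rprml* this is the start of the RefSeq gene. The gene record of *Cib3* reaches further, to chr8:72213086, so that 249 of the 250 bases of its window lie inside the gene and the region upstream of that longer model is not shown. They lie at chr2:59484403-59484652 for *Dapl1*, chr11:103649259-103649508 for *Rprml* and chr8:72212838-72213087 for *Cib3*. Capitals mark every match to any of 12 short motifs on either strand.
Dapl1: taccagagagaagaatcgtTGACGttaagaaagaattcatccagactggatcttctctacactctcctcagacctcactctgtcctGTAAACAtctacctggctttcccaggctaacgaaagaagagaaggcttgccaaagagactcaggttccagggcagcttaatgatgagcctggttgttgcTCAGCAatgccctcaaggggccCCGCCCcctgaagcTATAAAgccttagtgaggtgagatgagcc
Rprml: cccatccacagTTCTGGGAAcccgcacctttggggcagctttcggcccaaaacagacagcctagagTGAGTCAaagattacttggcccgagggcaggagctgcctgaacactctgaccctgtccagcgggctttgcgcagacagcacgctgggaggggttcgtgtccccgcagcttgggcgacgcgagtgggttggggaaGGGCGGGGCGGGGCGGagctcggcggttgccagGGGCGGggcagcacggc
Cib3: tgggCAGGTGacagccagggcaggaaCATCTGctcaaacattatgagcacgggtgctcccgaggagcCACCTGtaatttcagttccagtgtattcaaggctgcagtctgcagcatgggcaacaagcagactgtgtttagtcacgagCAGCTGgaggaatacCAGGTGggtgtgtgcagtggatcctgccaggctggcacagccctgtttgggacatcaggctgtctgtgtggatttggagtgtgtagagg

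None of the 12 motifs had a match in all 3 windows, of which that of *Cib3* is mostly not upstream of the gene. The letters searched were CACGTG for the E-box of MYC and ChREBP, CAGNTG for the E-box of NEUROD1 and its relatives, TGCTGA for the core of a MAF site, TAATTA for homeodomain factors, TGTTTAC for forkhead factors and GATAAG for the family named after it. Also searched were TTCNNNGAA for STAT factors, TGACG for the core of the cAMP response element, TGAGTCA for AP-1, GGGCGG for the GC box, CCAAT for the box of that name, and TATAAA for the TATA box. Positions are counted back from the start, so that the base before it is -1. The *Dapl1* window held TATAAA from -29 to -24, as 12.4% of all 32851 RefSeq windows of this length held at least 1 match. It also held TCAGCA, the reverse complement of the MAF core, from -65 to -60 (16.1% of all windows) and GTAAACA, the reverse complement of the forkhead letters, from -164 to -158 (3.17% of all windows). Its other matches were CCGCCC from -43 to -38 (32.7% of all windows) and TGACG from -231 to -227 (17.8% of all windows).

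The *Rprml* window was rich in G and C, at 66.8% against a median of 52.4% over all windows, with 18 CpG against a median of 6. It held 4 GC boxes between -50 and -12, of which the first 3 overlap by a base each, and 4.09% of all windows held as many. TGAGTCA stood from -184 to -178 (4.46% of all windows) and TTCTGGGAA from -239 to -231 (7.02% of all windows). The *Cib3* window held 5 matches to CAGNTG between -246 and -84. At least 1 such match was present in 44.8% of all windows and 5 or more in 0.131%. These shares are a description, since 249 bases of the *Cib3* window, with all 5 matches, lie inside the RefSeq gene. They do not mark a promoter rich in this motif, which was 1 of 12 searched. The RefSeq start of *Rprml* lies 61 bases before that of GENCODE. A match is a string of letters, and no factor was measured on these sequences.

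*Dapl1* was at 20.4, 16.7, 14.2, 22.6 and 15.04 FPKM in FL mice 1 to 5 and at 3.42, 2.45, 3.59, 3.85 and 4.28 FPKM in KO mice 1 to 5. All KO mice lay below all FL mice, and the lowest FL mouse was 3.32 times the highest KO mouse. FL mice averaged 17.8 ± 3.59 FPKM and KO mice 3.52 ± 0.678 FPKM (SD, n = 5), so that KO islets held 19.8% of the FL level. The difference in log2(FPKM + 1) was -2.05. The spread among mice relative to the mean was alike in the groups, with a coefficient of variation of 20.2% in FL and 19.3% in KO.

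*Rprml* was at 3.58, 2.55, 4.63, 4.46 and 3.63 FPKM in FL mice 1 to 5 and at 0.162, 0.140, 0.139, 0.0958 and 0.180 FPKM in KO mice 1 to 5. It was low in FL islets and close to absent in KO islets, where the highest mouse was 14.2 times below the lowest FL mouse. FL mice averaged 3.77 ± 0.828 FPKM and KO mice 0.143 ± 0.031 FPKM (SD, n = 5), or 3.80% of the FL level. In relative terms this was the deepest fall of the 3, at 26.3-fold against 5.05-fold for *Dapl1* and 4.25-fold for *Cib3*. The log2 scale with 1 FPKM added hides this, since it gave -2.04, while 0.1 FPKM added gave -3.97 and 0.01 FPKM gave -4.62.

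*Cib3* was at 27.2, 25.9, 19.4, 26.2 and 28.4 FPKM in FL mice 1 to 5 and at 7.66, 5.73, 5.86, 5.55 and 5.07 FPKM in KO mice 1 to 5. The groups did not overlap, and the lowest FL mouse was 2.54 times the highest KO mouse. FL mice averaged 25.4 ± 3.48 FPKM and KO mice 5.97 ± 0.991 FPKM (SD, n = 5), with 23.5% of the FL level left. The difference in log2(FPKM + 1) was -1.92. FL mouse 3 stood apart from the other FL mice, which lay between 25.9 and 28.4 FPKM, and without this mouse the difference was -2.01.

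**Figure D1:**
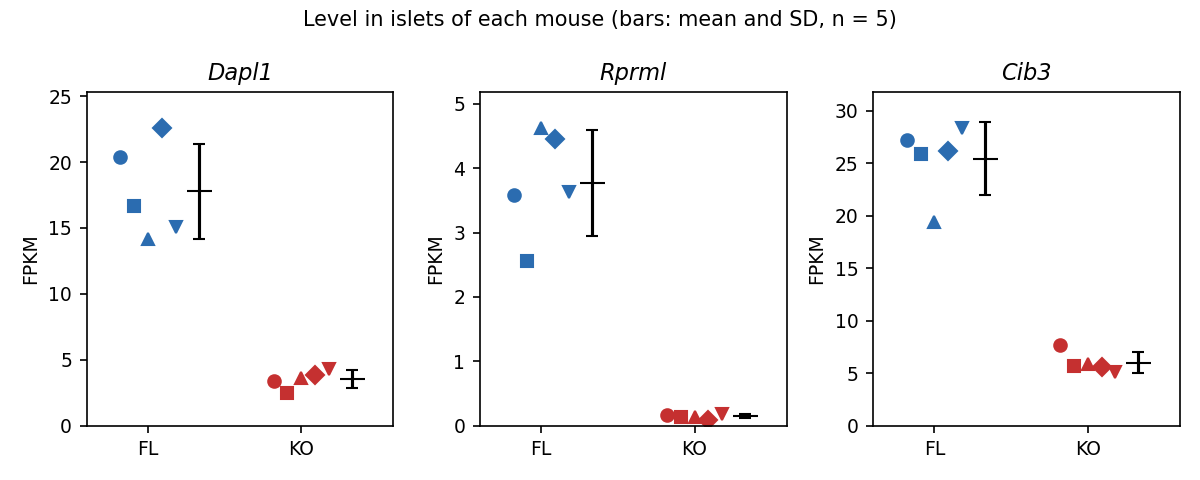
Level of Dapl1, Rprml and Cib3 in FPKM on linear axes from 0, with a point per mouse (FL blue, KO red, the shape of a point giving the mouse number within its group) and a bar for the mean and SD of 5 mice. All KO points lie below all FL points in each panel, with means of 17.8 and 3.52 for Dapl1, 3.77 and 0.143 for Rprml, and 25.4 and 5.97 for Cib3.

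The 3 genes stood at different places among all tested genes. In FL islets *Cib3* was above 66.5% of the tested genes, *Dapl1* above 56.9% and *Rprml* above 21.05%. In KO islets these shares were 30.2%, 19.8% and 0.498%, where *Rprml* was among the tested genes through its FL level alone, so that its place in KO follows in large part from the filter and from its choice. The order of the 3 levels was the same in both groups, but *Cib3* and *Dapl1* overlapped among FL mice and did not among KO mice. *Rprml* lay below both in every mouse.

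Of the tested genes, 25.5% passed an adjusted p of 0.05 from limma, and in 19.1% the groups did not overlap (12.5% with KO below FL and 6.67% with KO above FL). Lower in KO were 2150 genes (16.5%) and higher were 1183 (9.05%), a split that came to 1685 and 1544 with median ratio scaling. Among called falls without overlap, *Dapl1*, *Rprml* and *Cib3* held places 3 to 5 by the difference in log2(FPKM + 1). Ahead of them were *Chgb*, at 702 FPKM in FL and listed at 0 in KO, and *Gm3625*, whose exon of 102 nt is too short for a firm FPKM. An exact 0 in this table may stand for an estimate that failed, so neither the fall of *Chgb* nor its place is firm. Just outside was *T2*, at 11.9 ± 1.16 FPKM in FL mice and 2.83 ± 0.912 FPKM in KO mice (SD, n = 5), with a difference of -1.78. The place depends on the scale, since 84 tested genes, 24 of them with FL at 1 FPKM or more and KO above 0, had a lower ratio of KO to FL mean than *Cib3*. *Fitm2* itself, the gene deleted in KO mice, held place 10, at 23.3 ± 9.86 FPKM in FL mice and 6.95 ± 2.36 FPKM in KO mice (SD, n = 5).

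The number of reads behind *Rprml* could be estimated. It has a single exon and a single transcript, and the low FPKM of genes of this kind, 1706 in all and 550 to 851 with a low value in a given library, fell on steps of 1 read, with between 98.7% and 99.8% of these values within 0.1 read of a whole number. For *Rprml* these steps gave about 68, 75, 147, 119 and 167 reads in FL mice 1 to 5 and 5, 5, 4, 3 and 7 reads in KO mice 1 to 5. The KO values were whole within 0.1 read, while the higher FL values were not and were rounded to the nearest read. This made about 576 reads in FL and 24 in KO, a sum with an exact Poisson interval of 15.4 to 35.7 at 95%. Every KO library therefore held some *Rprml* reads, and none was at 0. Corrected for depth, the KO libraries held 3.83% of the FL level, with a 95% interval of 2.43% to 5.76% that covers counting error and leaves out the spread among mice. Depth did not separate the groups, at 1.00 to 2.41 times that of FL mouse 1 in FL and 1.51 to 2.05 times in KO. If all reads came from the coding transcript, *Dapl1* rested on about 179 to 317 reads per FL library and 41 to 77 per KO library, and *Cib3* on about 246 to 618 and 80 to 113.

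**Figure D2:**
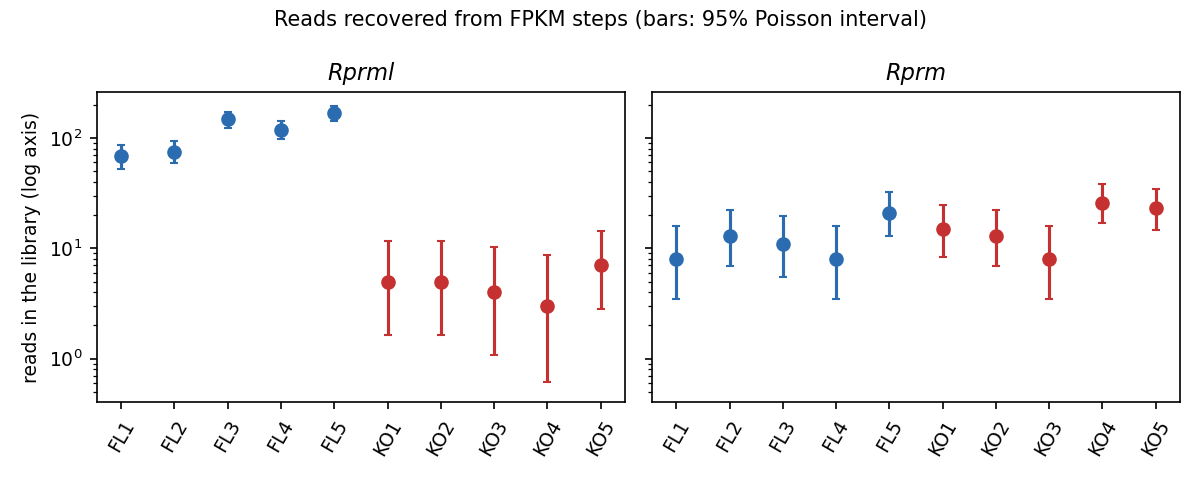
Reads of Rprml and of its paralog Rprm in each library on a log axis, with exact 95% Poisson intervals (FL blue, KO red). Rprml lies between 68 and 167 reads in FL and between 3 and 7 in KO, while Rprm lies between 8 and 21 in FL and between 8 and 26 in KO.

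The 3 genes were then set beside their paralogs, which the choice of genes did not use. *Dap*, the paralog of *Dapl1*, went the other way and rose from 261 ± 20.7 to 312 ± 17.5 FPKM (SD, n = 5), with FL mice at 233 to 286 FPKM and KO mice at 290 to 334 FPKM. The difference in log2(FPKM + 1) was 0.26 with an SE of 0.06 (adjusted p = 0.0128 from limma, exact two-sided permutation p = 0.00794, the smallest that 5 mice against 5 allow). In both groups *Dap* was the more abundant of the pair per exon length.

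*Rprm*, which encodes Reprimo, was scarce in both groups, at 0.253 ± 0.043 FPKM in FL mice and 0.327 ± 0.138 FPKM in KO mice (SD, n = 5), below the level required for the fit across genes. Its FL and KO mice overlapped (exact two-sided permutation p = 0.325). It was read 61 times in FL and 85 times in KO, a ratio corrected for depth of 1.28 with a 95% counting interval of 0.911 to 1.81. In FL islets *Rprml* exceeded *Rprm* in every mouse, and in KO islets the mean of *Rprml* was the lower of the pair.

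Of the CIB family, *Cib1* fell from 66.9 ± 3.37 to 56.2 ± 3.99 FPKM (SD, n = 5), without overlap. *Cib1* encodes the most widely expressed member, and its difference in log2(FPKM + 1) was -0.25 with an SE of 0.06 (adjusted p = 0.00902 from limma, exact permutation p = 0.00794). *Cib2* was at 42.3 ± 3.53 FPKM in FL mice and 35.9 ± 4.46 FPKM in KO mice (SD, n = 5), with overlap, a difference of -0.23, an SE of 0.09 and an adjusted p of 0.0681 from limma. Without KO mouse 2 its adjusted p was 0.0246. *Cib4* was listed at 0 in all 10 libraries. In FL islets the ranges of *Cib1* (63.7 to 72.0 FPKM), *Cib2* (38.3 to 47.9 FPKM) and *Cib3* (19.4 to 28.4 FPKM) followed each other without overlap, and the order was the same in KO islets.

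**Figure D3:**
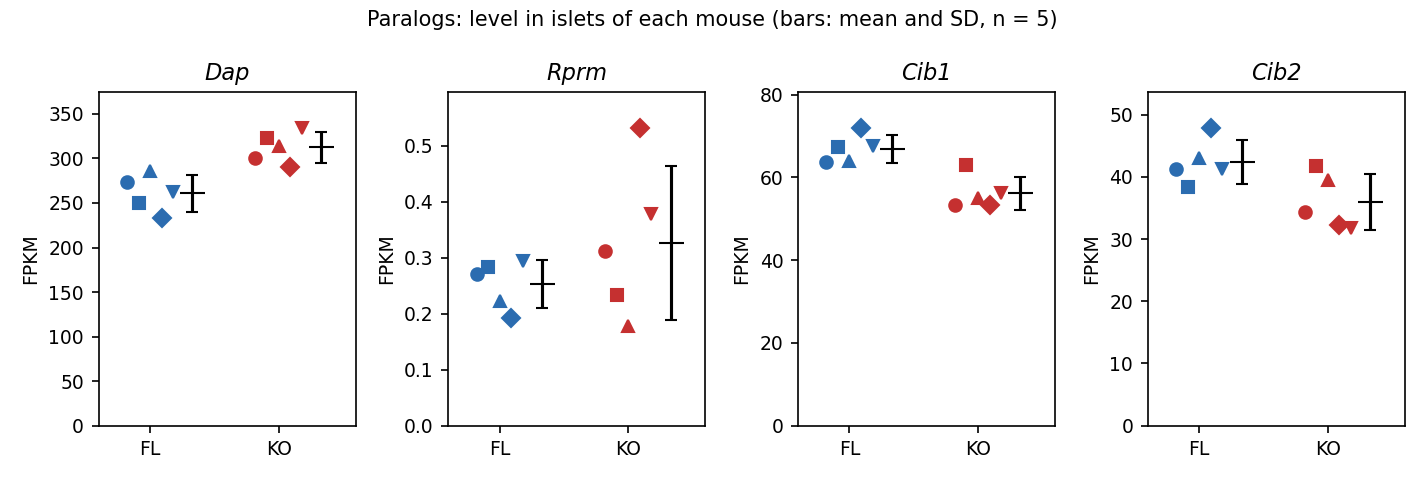
Level of the paralogs Dap, Rprm, Cib1 and Cib2 in FPKM on linear axes from 0, with a point per mouse (FL blue, KO red, the shape of a point giving the mouse number within its group) and a bar for the mean and SD of 5 mice. Dap is higher in every KO mouse than in any FL mouse, Cib1 is lower in every KO mouse, and the groups overlap for Rprm and Cib2.

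The genes around the 3 genes were examined next. The 3 nearest protein-coding genes on each side of each gene made 18 neighbours, of which 10 had a level to be tested. Of these, 3 were called lower and none higher, where 16.5% and 9.05% of all tested genes were, with a median difference in log2(FPKM + 1) of -0.09 beside -0.06 over all tested genes. Around *Dapl1*, *Pkp4* (129 kb away) fell from 70.1 ± 4.70 to 50.9 ± 2.52 FPKM (SD, n = 5) and *Baz2b* (394 kb away) from 42.3 ± 4.50 to 31.5 ± 1.16 FPKM (SD, n = 5). Their differences were -0.45 (adjusted p = 0.000215 from limma) and -0.41 (adjusted p = 0.00177 from limma). *Pkp4* encodes a plakophilin of cell junctions and *Baz2b* a bromodomain protein. *Ccdc148*, *Tanc1* and *Wdsub1* did not pass, with differences of -0.21, -0.09 and 0.11, and *Gm11099* was listed at 0.

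Around *Rprml*, only *Gosr2*, a SNARE of the Golgi, could be tested, at 127 ± 6.58 FPKM in FL mice and 122 ± 3.90 FPKM in KO mice (SD, n = 5; adjusted p = 0.448 from limma). Its difference was -0.05, and 0.02 under quantile scaling. *Lrrc37a*, *Gm884* and *Lyzl6* were listed at 0 in all libraries, *Wnt9b* did not exceed 0.0177 FPKM, and *Wnt3* was above 0 in a single FL library. Around *Cib3*, *Fam32a* (6.89 kb away) was called lower, from 55.8 ± 1.36 to 49.9 ± 2.46 FPKM (SD, n = 5), a difference of -0.16 (adjusted p = 0.0245 from limma). This call was lost under each other scaling (adjusted p from 0.0935 to 0.172), and without FL mouse 5 (0.0543), KO mouse 1 (0.0598) or KO mouse 4 (0.058). *Tpm4*, *Rab8a* and *Ap1m1* did not pass, with differences of 0.11, 0.10 and -0.09, *Hsh2d* was below the level required, and *Gm11034* was listed at 0.

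**Figure D4:**
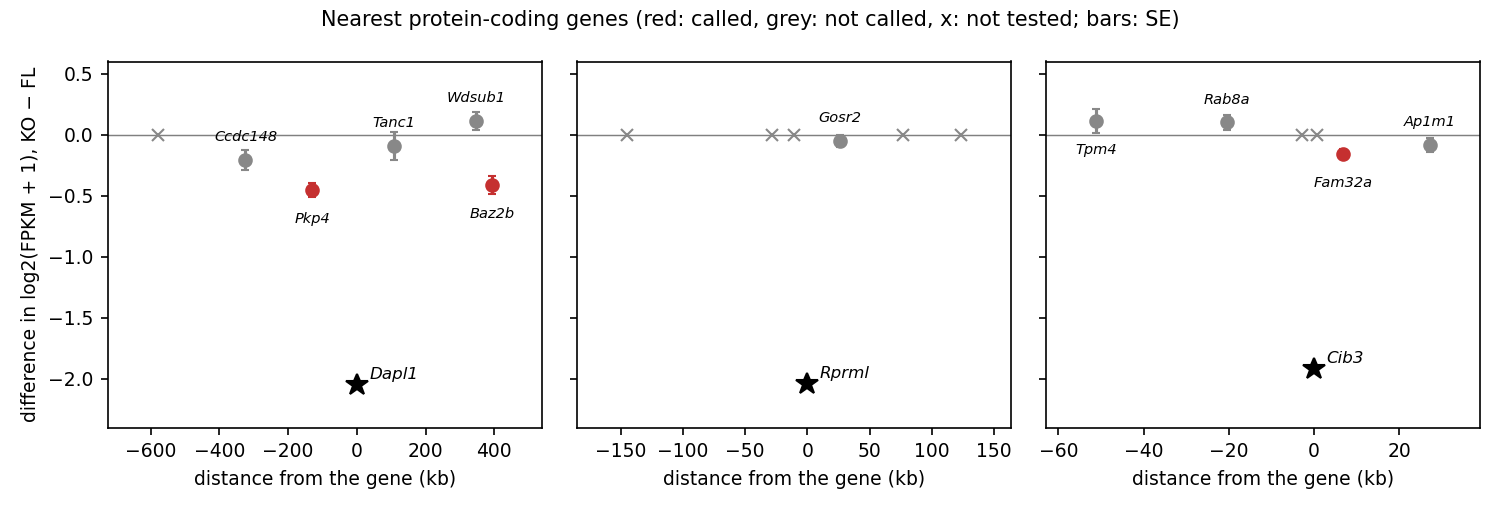
Difference in log2(FPKM + 1) between KO and FL for the 3 nearest protein-coding genes on each side of Dapl1, Rprml and Cib3, against the distance in kb to the nearest end of the gene (negative towards lower coordinates). Stars are Dapl1, Rprml and Cib3, red circles genes called at an adjusted p of 0.05, grey circles genes not called, bars the SE, and crosses on the line genes not tested. The tested neighbours lie between -0.45 and 0.11, and the stars at -2.05, -2.04 and -1.92.

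Genes of the processes in which the 3 families take part were counted in 7 lists, with *Dapl1*, *Rprml* and *Cib3* left out. Over all tested genes 16.5% were called lower and 9.05% higher. For *Dapl1*, the list of ribosome dormancy factors held 7 tested genes, with none lower, 1 higher (*Dap*) and a median difference of -0.03. Without KO mouse 2, 1 was lower. *Eif5a*, which is also found on dormant ribosomes, averaged 329 FPKM in FL mice and 323 FPKM in KO mice.

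Of 42 genes of autophagy and mTOR signaling, all tested, 4 were called lower and 7 higher, with a median difference of 0.00. *Wipi1*, which binds the phosphoinositide of forming autophagosomes, rose from 17.1 ± 1.27 to 33.01 ± 3.42 FPKM (SD, n = 5; difference 0.91, adjusted p = 1.21e-05 from limma). *Rps6kb1*, the S6 kinase downstream of mTOR, rose by 0.41, and *Sqstm1*, the autophagy receptor p62, by 0.30. *Atg4d*, a protease that trims the ATG8 proteins, fell from 21.01 ± 1.18 to 16.5 ± 1.24 FPKM (SD, n = 5; difference -0.33, adjusted p = 0.0023 from limma). *Mtor* did not pass, at 14.3 ± 1.75 FPKM in FL mice and 15.2 ± 2.49 FPKM in KO mice (SD, n = 5). Of the 11 called genes, 5 were called under all 20 alternatives, and the 4 lower came to 1 without FL mouse 2 or KO mouse 1 and to 2 without FL mouse 3, 4 or 5 or KO mouse 4. Scaling moved this count as well, to 2 with median ratio or quantile scaling and to 1 with TPM scaling.

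For *Rprml*, the p53 list held 26 tested genes of 30, of which 4 were called lower and 7 higher, with a median difference of 0.08. *Phlda3*, an inhibitor of Akt, rose from 10.7 ± 0.659 to 19.99 ± 2.61 FPKM (SD, n = 5; difference 0.84, adjusted p = 4.07e-05 from limma). *Eda2r*, a receptor of the TNF family, rose by 0.69, and *Cdkn1a*, the cell cycle inhibitor p21, rose from 48.6 ± 3.08 to 75.3 ± 4.31 FPKM (SD, n = 5; difference 0.62, adjusted p = 2.56e-05 from limma). The largest fall was that of *Plk3*, a kinase, with a difference of -0.45. *Trp53* itself was not called, with a difference of 0.11 (adjusted p = 0.213 from limma). Of the 11 called genes, 6 were called under every alternative that tested them, and the 4 lower came to 1 without KO mouse 1 and to 2 without FL mouse 3 or 4 or KO mouse 4 or 5, with TPM scaling giving 1 and no filter giving 2. Of 10 genes of the kinase module that drives entry into mitosis, 6 were tested and 1 was called, *Cdc25b*, a phosphatase that activates CDK1, which fell from 2.81 ± 0.279 to 1.90 ± 0.128 FPKM (SD, n = 5; difference -0.39, adjusted p = 0.00281 from limma). *Cdk1* was not called, at 2.45 FPKM in FL mice and 1.55 FPKM in KO mice, and *Ccnb1* was below the level required. A filter of 5 FPKM, which *Cdc25b* does not reach, left 0 called in this module.

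For *Cib3*, the list of EF-hand calcium sensors held 21 tested genes of 33, with 4 called lower, 3 higher and a median difference of -0.10. *Vsnl1*, a neuronal calcium sensor, fell from 6.68 ± 0.555 to 1.77 ± 0.439 FPKM (SD, n = 5; difference -1.48, adjusted p = 3.84e-06 from limma). *Necab2* fell from 10.5 ± 1.44 to 3.92 ± 0.387 FPKM (SD, n = 5; difference -1.22), and *S100a6*, a calcium-binding protein of the S100 family, from 182 ± 26.3 to 94.9 ± 17.9 FPKM (SD, n = 5; difference -0.95). *Chp2*, a partner of sodium-proton exchangers, rose by 0.63. Of the 7 called genes, 5 were called under every alternative that tested them. The 3 higher came to 1 without FL mouse 1, 3 or 5 or KO mouse 1, and with a filter of 5 FPKM.

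Of 18 genes of the mechanotransduction complex of hair cells and related channels, 10 were tested, 4 were called lower and 1 higher, with a median difference of -0.11. *Whrn*, a scaffold protein of stereocilia, fell from 23.7 ± 2.22 to 13.5 ± 1.82 FPKM (SD, n = 5; difference -0.78, adjusted p = 0.000168 from limma). *Ush1g*, also a scaffold, fell by 0.50, and *Pcdh15*, a cadherin of the tip link, fell by 0.35 on the log2 scale. With means of 1.22 FPKM in FL mice and 0.564 FPKM in KO mice, *Ush1g* was tested through its FL level alone. Its place among the 4 lower is therefore a description. The count higher, *Tmc6*, became 3 without FL mouse 1 and 0 without FL mouse 2 or 3 or KO mouse 3, 4 or 5 or with no filter. A filter of 5 FPKM, which tests fewer genes, left 2 lower. Of the channels that CIB3 is known to join, *Tmc1* averaged 0.003 FPKM in FL and was listed at 0 in KO, and *Tmc2* was listed at 0 in all libraries, which in this table may be an estimate that failed. Of 26 integrin subunits, 15 were tested, 2 were called lower and 3 higher, with a median difference of 0.11. *Itgb8* fell from 4.47 ± 0.524 to 1.91 ± 0.309 FPKM and *Itga6* rose from 24.7 ± 3.14 to 39.1 ± 2.203 FPKM (SD, n = 5) with differences of -0.91 (adjusted p = 6.43e-05 from limma) and 0.65 (adjusted p = 0.000189 from limma). *Itgav* fell by 0.33. Of the 5 called integrin genes, 4 were called under every alternative that tested them. The count higher became 5 with median ratio or TPM scaling or without a trend, and a filter of 5 FPKM left 1 lower and 1 higher.

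**Figure D5:**
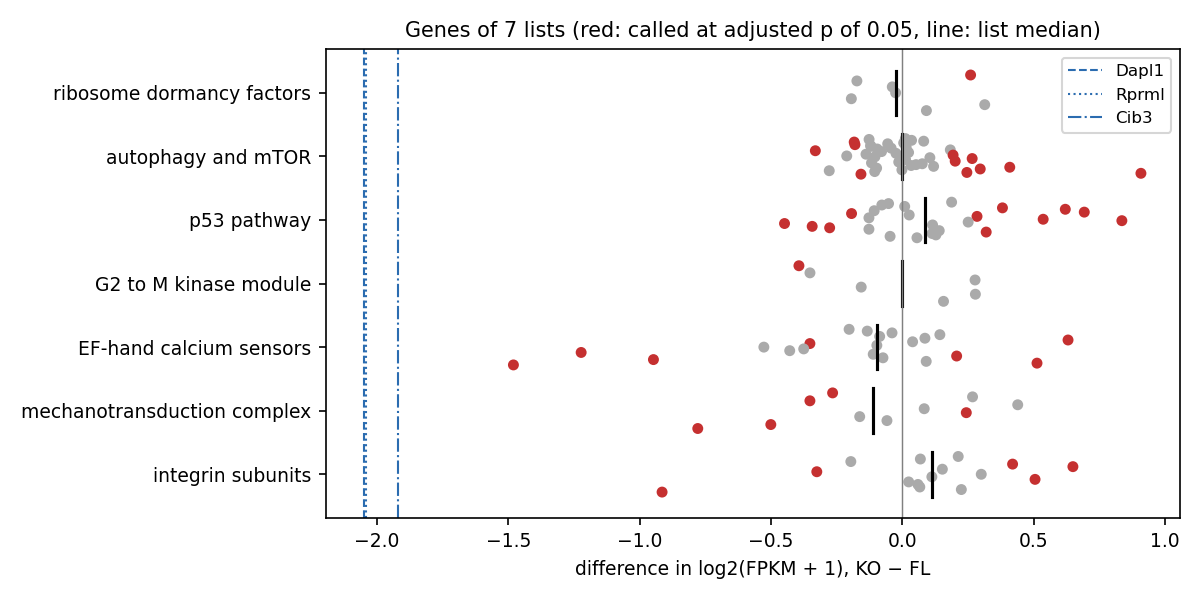
Difference in log2(FPKM + 1) between KO and FL for each tested gene of 7 lists, with Dapl1, Rprml and Cib3 left out of the points and drawn as vertical lines. Red points passed an adjusted p of 0.05, grey points did not, and the black bar is the median of the list. The points run from Vsnl1 at -1.48 to Wipi1 at 0.91, and the lines, of genes chosen for their falls, stand at -2.05, -2.04 and -1.92.

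In bulk islets, fewer cells of a type and less RNA per cell cannot be told apart. Of the 8 β cell markers, all detected in all libraries, 6 were called lower, as were 16.5% of all tested genes, and their summed level was 2748 to 3474 FPKM in FL and 1920 to 2664 FPKM in KO, a ratio of 0.738. The ratios for *Dapl1*, *Rprml* and *Cib3* were 0.198, 0.038 and 0.235, and since the 3 genes were chosen for their falls, the comparison of these ratios with the sums is a description. The sum of 6 α cell markers had a ratio of 0.727 (505 to 733 FPKM in FL and 360 to 496 FPKM in KO, 1 called lower) and that of 4 δ cell markers 0.826 (4960 to 5852 and 3993 to 5339 FPKM, 1 called lower). The sum of 6 leukocyte markers rose with KO, at 49.9 to 67.0 FPKM in FL and 90.8 to 100.1 FPKM in KO (3 of 5 tested called higher, beside 9.05% of all tested genes), as did those of 6 stellate cell markers (17.9 to 26.5 and 34.4 to 42.8 FPKM, all 6 called higher) and of 6 endothelial markers (133 to 153 and 161 to 206 FPKM, 3 called higher). Acinar and duct sums overlapped between the groups, with no acinar marker called. The sum of 8 acinar markers was 3615 to 9064 FPKM in FL and 2359 to 17332 FPKM in KO. That of 5 duct markers was 594 to 659 FPKM in FL and 512 to 642 FPKM in KO. Of 4 tested duct markers 1 was called lower, *Krt7*, at 451 ± 34.9 FPKM in FL mice and 356 ± 26.01 FPKM in KO mice, and 1 higher, *Cftr*, at 0.037 ± 0.018 and 2.13 ± 0.315 FPKM (SD, n = 5). *Cftr* was among the tested genes through its KO level alone, so its call is a description. The part of these shifts in the falls was not tested. The hormone genes *Ins1*, *Ins2*, *Gcg* and *Iapp* and the granule genes *Chga* and *Scg2* were listed at 0 in all libraries, so the islet label rests on the other markers, and an exact 0 may stand for an estimate that failed.

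Among mice of the same group, the 3 genes did not follow each other. The correlation of deviations from the group means over the 10 libraries was 0.08 between *Dapl1* and *Rprml*, 0.15 between *Dapl1* and *Cib3* and -0.33 between *Rprml* and *Cib3*. FL mouse 3 was lowest of its group for *Dapl1* and *Cib3* and highest for *Rprml*. With *Fitm2*, the correlation was 0.70 for *Dapl1*, -0.16 for *Rprml* and -0.19 for *Cib3*. FL mouse 4 was highest and KO mouse 2 lowest of its group in both *Dapl1* and *Fitm2*. These libraries share their groups and scaling, and the values are a description.

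The genes most like each of the 3 in these deviations were *Iqck* (0.94), *Gm5860* (0.94) and *Wdr89* (0.91) for *Dapl1*. For *Rprml* they were *Rnasek* (0.96), *Fam21* (0.96) and *Raver1* (0.95), and for *Cib3* they were *Cutc* (0.92), *Akap7* (0.89) and *Gm28875* (0.89). Of the 13064 other tested genes, 7 reached 0.9 with *Dapl1*, 14 with *Rprml* and 1 with *Cib3*. Over 10 libraries and this many genes, unrelated genes can reach such values, and how many would was not tested. *Iqck* (means of 1.21 FPKM in FL and 1.26 FPKM in KO) and *Gm28875* (0.835 and 1.04 FPKM) were also near the level required for the fit. Among the 9 genes named, only *Raver1* was called between the groups, and its fall from 34.0 ± 1.72 to 29.2 ± 0.463 FPKM (SD, n = 5; adjusted p = 0.00582 from limma) was smaller than that of *Rprml*.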

How the data were processed

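The authors aligned single-end reads with STAR 2.5.2a to the mm10 (GRCm38) genome and made the values with Cuffnorm 2.2.1, per the submitters' processing notes. They deposited 1 table of FPKM for 47340 genes in 10 libraries. The annotation release and the strand setting of the count are not given in the sources used here, and reads were not processed again. Coordinates come from GENCODE M21, whose identifiers match 38723 genes with their version and 46841 without it.

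Differences between KO and FL were fitted on log2(FPKM + 1) by limma 3.58.1 under R 4.3.3, with a mean-variance trend and no covariate. The fit covered the 13065 genes whose mean reached 1 FPKM in at least 1 group, with Benjamini-Hochberg adjustment and calls at an adjusted p of 0.05. A fold on this scale understates the change of low genes. An exact two-sided permutation test was used for single paralogs. Each mouse is a replicate. The procedure was tested on simulated data with the samples of this comparison, over 13065 genes. It called 94.4% of 89 genes changed by 1 and 96.4% of 111 genes changed by 2 on the log2 scale, and 5 of 12865 unchanged genes. The simulated noise was normal and independent between genes, and smaller changes were not simulated. Far fewer genes were changed than were called in the data, so the number of false calls does not carry over to them.

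Reads of single-exon genes were computed from the spacing of low FPKM, with an effective length for fragments of 200 ± 80 nt. Tables and figures used Python 3.11.15 with pandas 2.3.3, numpy 2.4.6, scipy 1.17.1 and matplotlib 3.10.9.

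The 3 genes, the lists and the tests were chosen with earlier results of these data known. The genes named are the 3 genes, their paralogs, *Fitm2*, the 3 nearest protein-coding genes on each side, up to 3 called genes per direction and list, a few fixed regulators, the 3 genes of most alike pattern and those next in the order of falls. *Eif5a*, *Tmc1* and *Tmc2* were named after their values were seen. The alternatives were pseudocounts of 0.1 and 0.01, no filter or a filter of 5 FPKM, median ratio, quantile or TPM scaling, limma without a trend or robust, the replicate number as a block, and leaving out each mouse in turn.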

Additional observations from a re-analysis of the deposited data

Results flagged for a closer look

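Each group of 5 mice was checked for a single mouse far from the others, meaning a gap to the nearest of the other mice above 0.71 of the whole range of the group. Of 134 groups checked over 68 genes, 4 had such a mouse, and chance alone flags about 1 in 20 groups, or 6.70 here. *Cib3* had 1 FL mouse at 19.4 FPKM, with the others between 25.9 and 28.4 FPKM. *Atg4d* had 1 KO mouse at 18.7 FPKM, with the others between 15.6 and 16.2 FPKM. *Tesc*, an EF-hand gene, had 1 FL mouse at 2.92 FPKM, with the others between 1.90 and 2.11 FPKM. *Fam21* had 1 KO mouse at 29.5 FPKM, with the others between 31.9 and 32.6 FPKM.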

How the results depend on the processing

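*Dapl1*, *Rprml* and *Cib3* were chosen for falls without overlap, so their direction under the alternatives is no sign of stability. Leaving out a mouse gave differences from -2.12 to -1.95 for *Dapl1*, -2.14 to -1.98 for *Rprml* and -2.01 to -1.87 for *Cib3*. A pseudocount of 0.1 gave -2.30 for *Dapl1* and -3.97 for *Rprml*, 0.01 gave -2.33 and -4.62, and TPM scaling gave -2.44 for *Rprml*. A filter of 5 FPKM removed *Rprml*. Their places among the falls ran from 3 to 5 for *Dapl1* and *Rprml* and from 4 to 8 for *Cib3*. The calls of *Dap* and *Cib1* held under all 20 alternatives, while *Cib2* ranged from -0.29 to -0.19 without a mouse. Scaling moved the median of all genes from -0.06 to between -0.02 and -0.01.

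The replicate numbers gave no sign of pairing, as the correlation of deviations between mice of the same number was between -0.10 and 0.00. The sample titles do not say what the numbers stand for, and these correlations cannot exclude a pairing by litter or batch. With the replicate block, the calls in the lists went from 19 lower and 22 higher to 13 lower and 14 higher, and those over all genes came to 1494 lower and 874 higher. The block also ended the calls of *Fam32a* (adjusted p = 0.0856) and *Plk3* (adjusted p = 0.0531). It left 1 lower and 4 higher in the autophagy list, 1 lower in the p53 list, 1 higher among the EF-hand genes and 0 higher in the mechanotransduction list.

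Genes alike in pattern were less stable. *Iqck* with *Dapl1* ranged from 0.92 to 0.96 and *Cutc* with *Cib3* from 0.87 to 0.94 without a mouse, and *Rnasek* with *Rprml* from 0.87 to 0.97, and 0.89 with a pseudocount of 0.1. Others went lower, to 0.77 for *Raver1* with *Rprml* under median ratio scaling, and without a mouse to 0.79 for *Akap7* and 0.78 for *Gm28875* with *Cib3* and 0.85 for *Fam21* with *Rprml*. The sign of differences near 0 turned under quantile scaling for *Gosr2* (0.0236) and *Iqck* (-0.0146), and without some mouse for *Gm5860* (from -0.0982 to 0.172), *Rnasek* (from -0.0562 to 0.091) and *Fam21* (from -0.0585 to 0.0448). The cause was not tested. FPKM give no read number for genes with several exons, which limits what can be said of *Dapl1* and *Cib3* beyond the spread among mice.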
